A study of Arabidopsis thaliana with 24 samples.

Results

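Genes of the methionine sulfoxide reductase and glutaredoxin families are described here in Arabidopsis thaliana seedlings. The genes are MSRB6 (AT4G04840), a methionine sulfoxide reductase, and the glutaredoxin family genes AT1G64500 and AT5G18600. They are 3 of the 13350 genes that the array's probe sets name singly, each read by 1 probe set, and all 3 passed the filter on dim signals. They were chosen by their change in wild type after red light, a rise or a fall, and by how far that change depended on phytochrome A, with the values of all 8 groups known. The phyB and phyAphyB arrays may therefore have entered the choice too, so every value of the 3 genes is given below as a description, with errors and no test. Tests are given for other genes.

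Whole seedlings (root, hypocotyl and cotyledon together) were 4 days old and dark-grown, and were either kept in darkness or given 1 h of red light at 680 nm and 8 µmol per square metre per second. Each treatment was applied to wild type, the phyA mutant, the phyB mutant and the phyAphyB double mutant, with 3 arrays, called biological replicates in the design text, in each of the 8 groups. The sources used here give neither the alleles nor the parental lines. The p-values set a difference against the spread between arrays within groups, which limma estimated over all 8 groups together. A change in a whole seedling can come from fewer cells of a type or from less RNA per cell, and these cannot be told apart.

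Phytochromes are red and far-red light receptors that move to the nucleus in the light and change transcription. Phytochrome A accumulates in darkness and is degraded in red light, while phytochrome B is stable in the light. Methionine sulfoxide reductases of the B class turn the R form of methionine sulfoxide in proteins back into methionine, and draw their electrons from thioredoxin or glutaredoxin systems. Glutaredoxins are thiol-disulfide oxidoreductases that depend on glutathione. Whether the products of AT1G64500 and AT5G18600 have this activity was not tested. In green tissue light drives photosynthetic electron transport and with it the production of reactive oxygen, which can oxidise both methionine and cysteine. Neither process was measured in these dark-grown seedlings.

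The values are MAS5 signals, a linear brightness in arbitrary units per probe set and array, scaled so that all arrays share 1 trimmed mean. Median signals ran from 169.8 to 195.1 over the 24 arrays, and the 40th percentile of an array from 97.4 to 127.3. Signals at or under that percentile are called dim below, because their log ratios vary widely. The mean correlation of an array with the other arrays of its group, in log2 signal over tested probe sets, was 0.954 to 0.981. Dark phyA replicates 2 and 3 stood apart in a 25S rRNA control, at 10507.9 and 13573.9 against 46.8 to 450 on the other 22 arrays. STZ, the 1 of 5 listed handling genes with a named probe set, read 401.8 to 1481.8 in dark phyA. It read 193.1 to 324.8 in dark wild type, 298.8 to 309.9 in red phyA and at most 432.1, in red phyAphyB, outside dark phyA. Its bearing on the phyA values was not tested. Of the listed tissue markers, 4 of 8 cotyledon and plastid genes had a named probe set (PORB, LHCB4.1, LHCB4.2 and RCA), with summed signals of 18744.6 to 31042.8 per array. The 2 of 5 root markers with a name (EXPA7 and EXPA18) summed to 97.1 to 246.6, and EXPA18 alone had group means of 74.5 to 143, at or near the dim range.

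MSRB6 was at or near the dim range in darkness in every genotype, and clearly above it on red-lit arrays of wild type and phyB. In dark wild type its signals were 100.8, 50.7 and 77.4, and in red-lit wild type 322.9, 350.3 and 282.9. In dark phyA they were 92.2, 94.5 and 84.7, and in red-lit phyA 76.6, 105.5 and 113.4. The red and dark arrays stood apart in wild type, as for 22.9% of all tested probe sets (12.2% with red above dark and 10.7% with red below), and overlapped in phyA. In phyB the 3 dark signals were 47.2, 68.8 and 46.5 and the 3 red signals were 263.7, 246.4 and 208.5. In phyAphyB the dark signals were 123.7, 68.4 and 73.2 and the red signals 68.7, 73.2 and 89. Every red phyB array was thus above every dark phyB array, while the red phyAphyB arrays lay inside the range of the dark ones.

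Only 7 of 24 arrays had MSRB6 above the array's own 40th percentile, namely the 3 red wild type arrays, the 3 red phyB arrays and dark phyAphyB replicate 1. MSRB6 was therefore tested at all because of the groups in which it was high. Ordered by mean signal, red wild type (319 ± 33.9, SD, n = 3) came first and red phyB (240 ± 28.2) second, with no overlap between them. The other 6 groups had means between 54.2 and 98.5, and each overlapped its neighbour in that order. How many of all tested probe sets stood apart between genotypes was not counted, here or for the orders below.

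AT1G64500, a glutaredoxin family gene, had the widest range of the members that were higher in red light. Its dark wild type signals were 115.5, 95.4 and 79.8, and its red wild type signals 797.5, 732.3 and 722.1. In phyA the dark signals were 109.1, 74.4 and 93.2 and the red signals 152.3, 218.3 and 175.1. The red phyA arrays were above all dark arrays of every genotype and below all red wild type arrays. In phyA red and dark arrays did not overlap for 18.7% of tested probe sets, with red above for 9.08% and below for 9.59%. In phyB the dark signals were 72.6, 101.6 and 69.8 and the red signals 561, 459.5 and 480.4. In phyAphyB the dark signals were 68.9, 66.3 and 56.1, and the red signals of 66.6, 77.8 and 83.4 overlapped them. None of the 12 dark arrays had AT1G64500 above its own 40th percentile, and 9 of the 12 red arrays did, all but those of phyAphyB.

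The order of AT1G64500 levels was red wild type (751 ± 40.9), red phyB (500 ± 53.6) and red phyA (182 ± 33.5), each with no overlap with the next group. Below them the dark groups and red phyAphyB ran from 96.9 down to 63.8, with overlapping neighbours. Unlike MSRB6, AT1G64500 thus held an intermediate level in red-lit phyA.

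AT5G18600, the other glutaredoxin family gene, was bright on all 24 arrays and was lower in red light. Its dark wild type signals were 4523.7, 4354.8 and 3992.9 and its red wild type signals 1075.9, 1219.9 and 1619.3. In phyA the dark signals were 2199.1, 2070.6 and 2009.5 and the red signals 1204.1, 1450.1 and 954.9. Red arrays were below dark arrays in both genotypes, but the dark phyA level was already below that of dark wild type. In phyB the dark signals were 3125.3, 3894 and 3036.1 and the red signals 1270.8, 1030.9 and 2132.5. In phyAphyB the dark signals were 1749.6, 1575.1 and 1604.9 and the red signals 1651.8, 1238.9 and 1941.7. The dark and red arrays of phyAphyB overlapped for all 3 genes, and they were apart for 10.7% of tested probe sets there, with red above for 4.75% and below for 6%. In phyB they did not overlap.

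The order of AT5G18600 levels separated the dark groups and not the red ones. Dark wild type (4290 ± 271) was above dark phyB (3350 ± 472), then dark phyA (2090 ± 96.8) and dark phyAphyB (1640 ± 93.3), each with no overlap with the next. The 4 red groups had means between 1200 and 1610 and overlapped their neighbours, and dark phyAphyB overlapped red phyAphyB. Over all genotypes the 12 red arrays ranged from 954.9 to 2132.5 and the 12 dark arrays from 1575.1 to 4523.7.

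**Figure D1:**
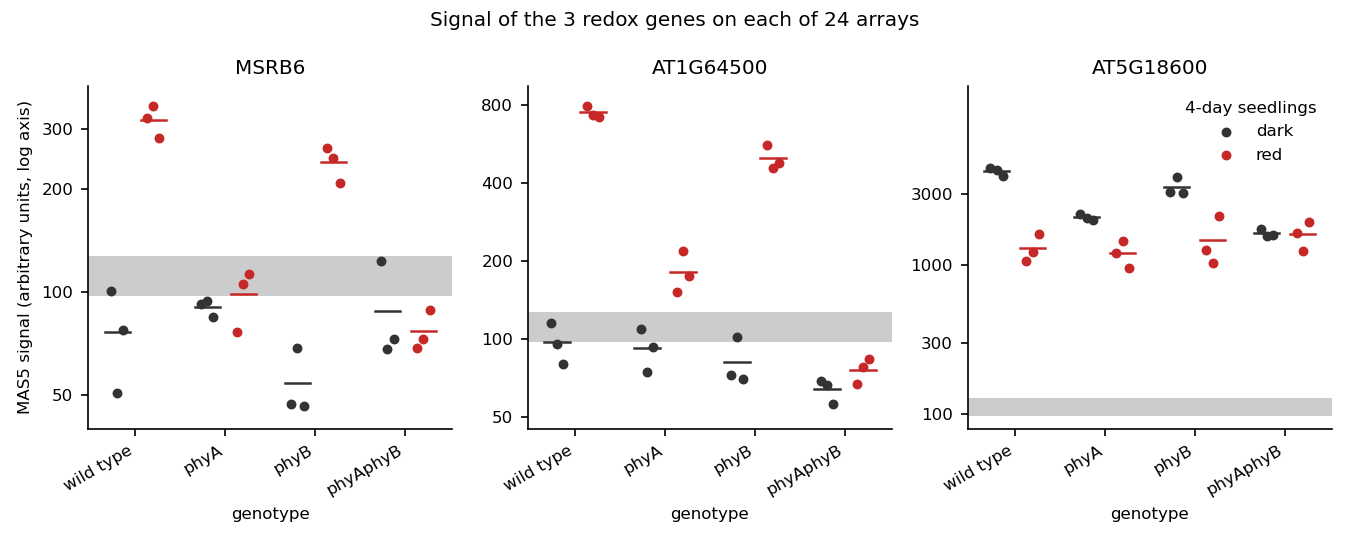
MAS5 signal (log axis, arbitrary units) of MSRB6, AT1G64500 and AT5G18600 on each of 24 arrays, by genotype, with dark arrays in black, red-lit arrays in red and horizontal bars at the mean of 3 arrays. The grey band spans the arrays' 40th percentiles (97.4 to 127.3), under which MSRB6 and AT1G64500 fell in most dark samples, while AT5G18600 stayed above it throughout.

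In wild type the log2 difference between red and dark was 2.11 ± 0.26 (limma SE, n = 3 against 3) for MSRB6, 2.97 ± 0.20 for AT1G64500 and -1.74 ± 0.20 for AT5G18600. In phyA the same differences were 0.10, 0.98 and -0.82. As a share of the wild type log2 difference, phyA kept 4.93% for MSRB6, 33.1% for AT1G64500 and 47.1% for AT5G18600. The share for MSRB6 rests on a difference of 0.10 ± 0.26 between dim groups, which ran from -0.01 to 0.28 when single arrays were left out. These values chose the genes. In wild type 4.06% of the 15085 tested probe sets passed as higher in red light and 2.39% as lower, and in phyA 2.41% and 1.93%. Without dark phyA replicates 2 and 3, the arrays of high ribosomal RNA signal, only replicate 1 was left in dark phyA. The phyA differences were then 0.08, 0.72 and -0.89, with no spread among dark phyA arrays to judge them by.

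The phyB mutant asks whether the changes occur without phytochrome B. There MSRB6 was 4.48-fold higher in red light than in darkness (log2 2.16 ± 0.26, SE, n = 3 against 3) and AT1G64500 6.22-fold higher (log2 2.64 ± 0.20). AT5G18600 was 2.36-fold lower, with a log2 difference of -1.24 ± 0.20. In phyB 3.58% of tested probe sets rose and 2.17% fell by limma. Of all 15085 differences, AT1G64500 had the 24th highest and MSRB6 the 47th highest, and AT5G18600 had the 52nd lowest. Such ranks may follow from the choice of the genes, which was made with these values known. The 3 red arrays lay beyond the 3 dark arrays for each gene, as they did for 21.7% of all tested probe sets (9.94% upward and 11.8% downward). The dark phyB signals of MSRB6 and AT1G64500 were dim, so the size of those folds is uncertain, and with a pseudocount of 10.7 signal units their log2 differences were 1.96 and 2.48.

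In the phyAphyB double mutant the differences of all 3 genes were near 0. The log2 difference between red and dark was -0.16 for MSRB6 (95% interval -0.70 to 0.39), 0.25 for AT1G64500 (-0.16 to 0.66) and -0.05 for AT5G18600 (-0.47 to 0.37). In phyB the differences were 2.16, 2.64 and -1.24. All these values may have entered the choice of the genes, so the intervals describe the error and are no test. Few probe sets of any kind passed in this genotype, 0.305% of those tested (0.0265% higher and 0.278% lower).

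The red response was set against that in phyB, which shows what the loss of phytochrome A goes with where phytochrome B is missing as well. The difference, phyAphyB minus phyB, was -2.32 ± 0.37 in log2 for MSRB6 (95% interval -3.09 to -1.55), -2.39 ± 0.28 for AT1G64500 (-2.96 to -1.81) and 1.19 ± 0.29 for AT5G18600 (0.60 to 1.78). Among tested probe sets 1.54% differed by limma, 0.206% with a higher and 1.33% with a lower value in phyAphyB. The value for AT5G18600 was the least certain, at 0.97 to 1.49 over 12 fits that left out 1 array each.

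Where phytochrome B was present, the matching values for the loss of phytochrome A (phyA minus wild type) were -2.01 for MSRB6, -1.99 for AT1G64500 and 0.92 for AT5G18600. Both sets of values may have entered the choice of the genes, so neither supports the other. The gap between both estimates was -0.31 for MSRB6, -0.40 for AT1G64500 and 0.27 for AT5G18600, given as a description. Loss of phytochrome B alone (phyB minus wild type) went with response differences of 0.05, -0.33 and 0.49, with 95% intervals of -0.72 to 0.82, -0.91 to 0.24 and -0.09 to 1.08. Loss of phytochrome B in the absence of phytochrome A (phyAphyB minus phyA) went with -0.26 for MSRB6 (95% interval -1.03 to 0.51), -0.73 for AT1G64500 (-1.31 to -0.15) and 0.77 for AT5G18600 (0.18 to 1.36).

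A red response can differ because the dark level or the red level differs, so both were compared between phyAphyB and phyB. For AT1G64500 the red level was 6.59-fold lower in phyAphyB (log2 -2.72 ± 0.20), and the dark levels differed by -0.34 (95% interval -0.74 to 0.07). For MSRB6 the red level was 3.12-fold lower (log2 -1.64 ± 0.26), and the dark levels differed by 0.68 (95% interval 0.14 to 1.22). The MSRB6 dark difference was 0.41 without the array of the highest dark signal, dark phyAphyB replicate 1. It lies between dim group means, 54.2 in dark phyB and 88.4 in dark phyAphyB. The intervals are not adjusted for the number of probe sets.

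For AT5G18600 the larger difference was in the dark level. It was 2.03-fold lower in dark phyAphyB than in dark phyB (log2 -1.02 ± 0.20). The red levels differed by 0.17 ± 0.20 (95% interval -0.25 to 0.59). Of tested probe sets 5.36% were lower and 5.4% higher in dark phyAphyB than in dark phyB, and 8.33% were lower and 8.64% higher in red light. The phyA mutant showed the same order against wild type, with a log2 difference of -1.03 in darkness and -0.12 in red light. In darkness the seed reserve gene ICL (isocitrate lyase) was also lower in phyAphyB than in phyB (log2 -0.46, limma adjusted p = 0.0043), as were the antenna protein genes LHCB4.1 (-0.37, limma adjusted p = 0.031) and LHCB4.2 (-1.53, limma adjusted p = 3.2e-06), while PORB (0.18), RCA (0.24), EXPA18 (0.31) and the handling gene STZ (0.02) did not pass. The summed cotyledon and plastid markers were 20097.1 to 23401.6 in dark phyAphyB and 21907.3 to 25655.3 in dark phyB. Their part in the AT5G18600 difference was not tested.

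**Figure D2:**
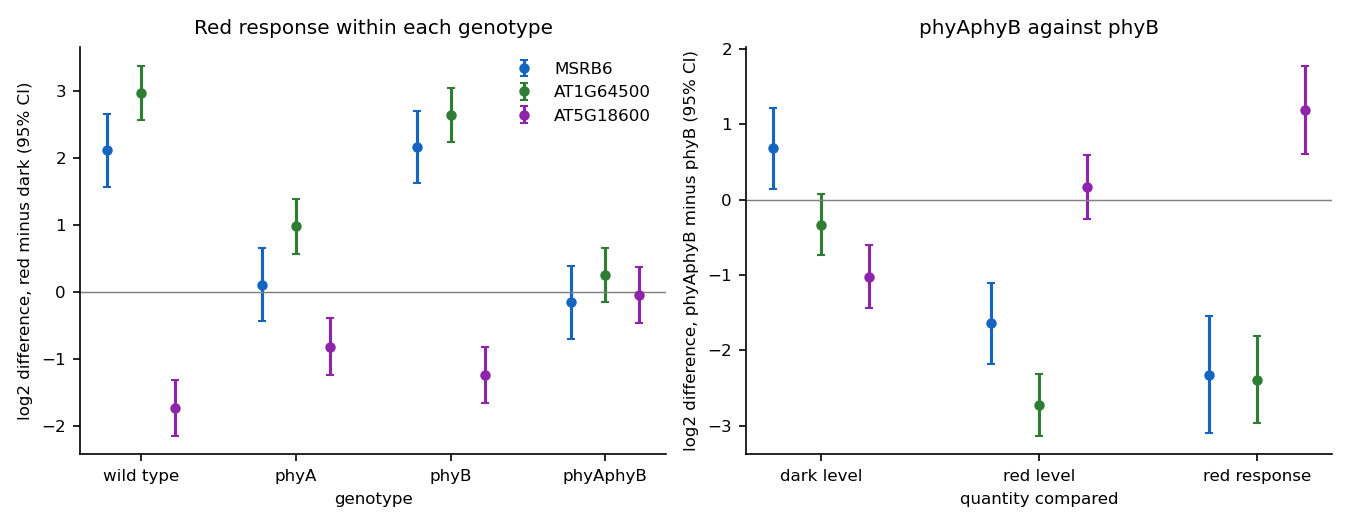
Left, log2 difference between red and dark arrays in each genotype, and right, log2 difference between phyAphyB and phyB in dark level, red level and red response, for MSRB6, AT1G64500 and AT5G18600. Points are limma estimates from 3 arrays per group and bars their 95% intervals. The genes were chosen with these values known, so the intervals are no test. In phyAphyB all 3 intervals for the red response hold 0. On the right AT5G18600 is the gene whose interval lies under 0 for the dark level and holds 0 for the red level.

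The other tested genes of these families had smaller red differences in phyB, and none passed there or in phyAphyB. Of 14 methionine sulfoxide reductase loci and 44 glutaredoxin loci listed, 5 and 29 had a named probe set, and 5 and 16 were tested. The 13 named glutaredoxin genes left untested had group means of at most 108, in the dim range, and their responses are not known from these arrays. Apart from the members, 0 of 4 methionine sulfoxide reductase genes and 0 of 14 glutaredoxin genes passed for red minus dark in phyB by limma, against 5.75% of all tested probe sets, with 1 and 3 at an unadjusted p under 0.05. Their log2 differences ran from -0.52 to 0.08 and from -0.47 to 0.23, with medians of -0.24 and -0.16 beside -0.03 over all tested probe sets. In phyAphyB likewise 0 of 4 and 0 of 14 passed by limma (0 and 1 at an unadjusted p under 0.05), beside 0.305% of all tested probe sets. For the difference in response between phyAphyB and phyB, 0 of these 18 passed by limma, beside 1.54% of all, with 0 at an unadjusted p under 0.05. Counts of 0 among so few genes are near those shares. MSRB9 (-0.52 in phyB) and AT5G20500 (-0.30) were nearest to a call, each at a limma adjusted p of 0.096. MSRB9 passed at 0.013 when dark phyA replicates 2 and 3 were left out of the shared spread. These counts do not cover phyA. There the glutaredoxin gene GRX480 differed by -1.45 in log2 between red and dark, with dark phyA signals of 202.3, 1046.8 and 270.6. The highest was on replicate 2, and the difference was not tested.

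The levels of some of these genes differed between phyAphyB and phyB in darkness and red light alike. MSRB5, a B class reductase gene next to MSRB6 in the TAIR10.1 gene order, read 780.6 to 996.6 on the 6 phyAphyB arrays and 139.8 to 322.8 on the other 18. It was higher in phyAphyB than in phyB by 2.04 ± 0.20 log2 units in darkness (limma adjusted p = 6.7e-08) and by 2.36 ± 0.20 in red light (limma adjusted p = 3.1e-09). MSRB9, another B class gene, read 2123.7 to 2915.5 on the phyAphyB arrays and 613.9 to 1605.2 on the other 18, and was higher by 1.11 ± 0.18 in darkness and 1.51 ± 0.18 in red light (limma adjusted p of 9.2e-05 and 6.9e-07). MSRB3 was lower in red-lit phyAphyB by 0.59 ± 0.18 (limma adjusted p = 0.025), and its dark value of -0.49 ± 0.18 did not pass (limma adjusted p = 0.092), nor did the difference between both (-0.10, limma adjusted p = 0.99). MSRB5 thus stood apart in phyAphyB, where MSRB6 beside it was at its dim level in darkness and red light. The share of all tested probe sets that kept these 6 arrays apart from the other 18 was not counted. Whether the probes of these near relatives read each other's transcripts was not tested.

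Among the glutaredoxin loci, AT5G20500 was higher in phyAphyB than in phyB, by 0.42 in darkness (limma adjusted p = 0.0069) and 0.64 in red light (limma adjusted p = 5.2e-05). AT5G13810 was lower, with -0.56 in darkness (limma adjusted p = 0.0039) and -0.65 in red light (limma adjusted p = 0.00065), and AT4G08280 was lower in darkness (-0.45, limma adjusted p = 0.038). Its red value of -0.19 did not pass, and neither did the difference between both (0.26 ± 0.20, limma adjusted p = 0.91). Without the members, 3 genes of both families were higher and 2 lower of 18 in darkness, and again 3 and 2 in red light, beside 10.8% and 17% of all tested probe sets in either direction.

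**Figure D3:**
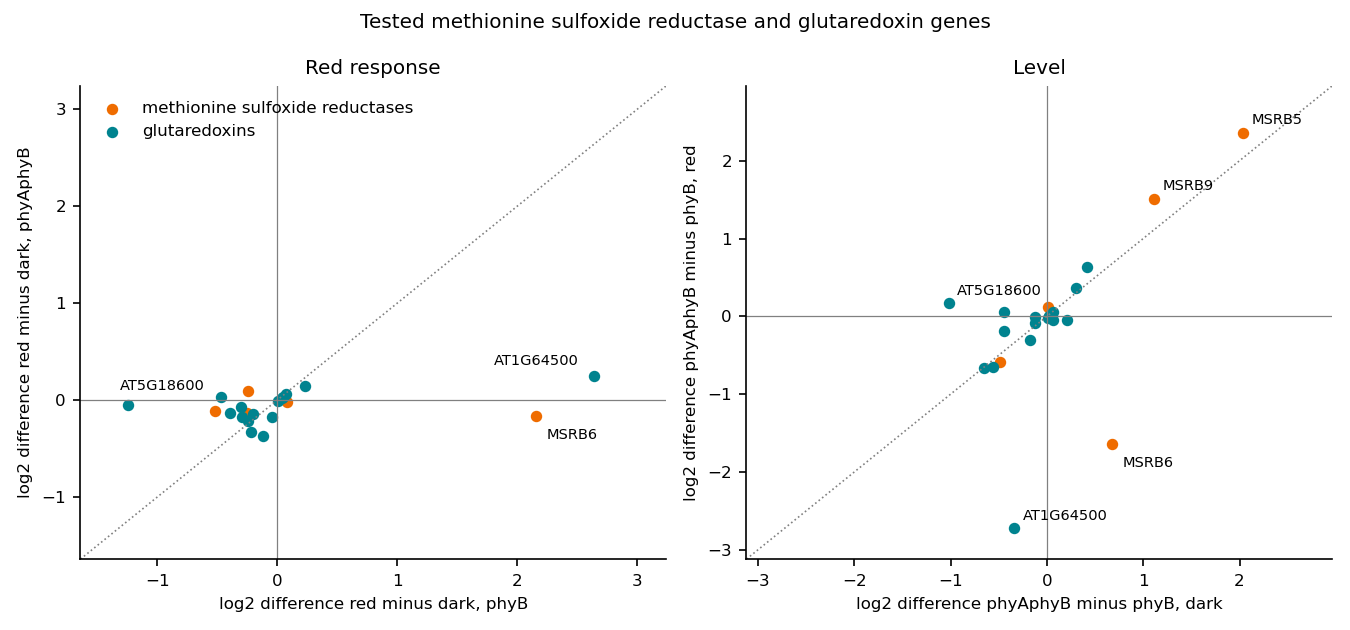
Tested methionine sulfoxide reductase genes (5, orange) and glutaredoxin genes (16, teal), each 1 point. Left, the log2 red response in phyAphyB against that in phyB, where only the 3 named members lie far from 0 on the horizontal axis; right, the log2 difference phyAphyB minus phyB in red light against darkness, where MSRB5 and MSRB9 lie near the dotted line of equal differences and the members lie off it.

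The other redox systems listed were thioredoxins with their reductases, peroxiredoxins with sulfiredoxin and glutathione peroxidases, enzymes of glutathione synthesis and the ascorbate-glutathione cycle, and catalases with superoxide dismutases. Of their 70 loci 18 were named and tested, 0 of them a catalase or superoxide dismutase. In phyB 0 of these 18 changed in red light by limma (5 at an unadjusted p under 0.05), beside 5.75% of all tested probe sets, with log2 differences between -0.37 and 0.59 and a median of -0.01. In phyAphyB 0 of 18 changed by limma (0 at an unadjusted p under 0.05), beside 0.305% of all, with values between -0.18 and 0.15. For so few genes these counts of 0 are near those shares. SAPX, a stromal ascorbate peroxidase, was higher in phyAphyB than in phyB by 0.65 in darkness (limma adjusted p = 0.0069) and 0.53 in red light (limma adjusted p = 0.022). The glutathione reductase gene AT3G54660 was lower in red light by 0.43 (limma log2 -0.43, adjusted p = 0.017), and the peroxiredoxin locus AT3G11630 was higher by 0.37 (limma adjusted p = 0.039). These are 1 of 18 genes in darkness and 3 of 18 in red light, beside 10.8% and 17% of all tested probe sets. No thioredoxin gene passed in any of the 5 comparisons, with at most 3 of 9 at an unadjusted p under 0.05.

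The genes whose patterns were most like each member were found by the correlation of mean log2 signals over the 8 groups, among 6529 genes that reached the median signal in at least 1 group. Such correlations over 8 points are a description of these arrays, and the highest of so many are high by selection. For MSRB6 the closest were AT3G21670 (r = 0.982), a gene of the nitrate and peptide transporter family, AT4G17670 (0.974), AT1G71810 (0.971), bHLH34 (0.969), a basic helix-loop-helix factor, and AT1G75810 (0.965). The log2 red response of AT3G21670 was 2.2 in wild type, 0.50 in phyA, 2.23 in phyB and -0.20 in phyAphyB, and that of bHLH34 was 1.03, 0.11, 1.25 and 0.03.

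For AT1G64500 the closest were AT1G50020 (r = 0.989), AT1G73480 (0.986), AT1G66330 (0.985), AT3G16940 (0.984) and AT1G80130 (0.984). All 5 had an intermediate response in phyA, between 0.22 and 1.09, beside 0.63 to 1.92 in wild type. For AT5G18600 the closest were AT4G24050 (r = 0.962), AT1G07020 (0.958), AT1G78895 (0.949), AT4G31130 (0.944) and AT3G10770 (0.928), whose wild type responses of -0.58 to -0.18 were all smaller than that of AT5G18600. Between the members the correlation was 0.946 for MSRB6 and AT1G64500, -0.62 for MSRB6 and AT5G18600, and -0.52 for AT1G64500 and AT5G18600, over the same 8 groups.

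**Figure D4:**
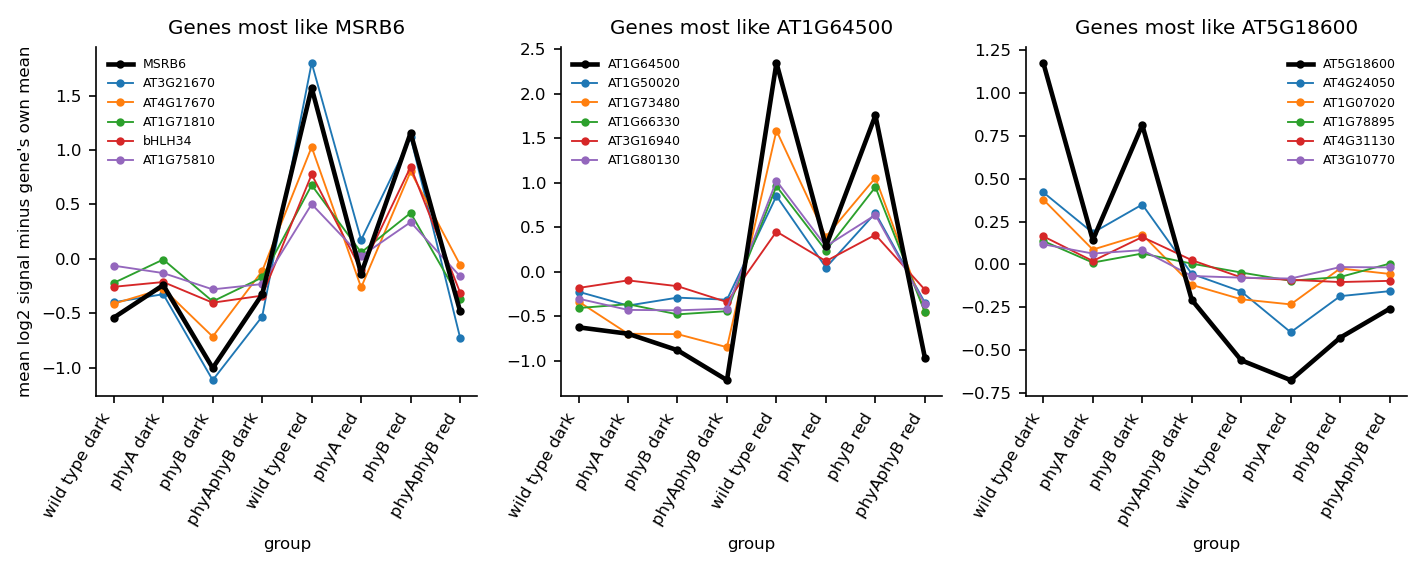
Mean log2 signal per group minus each gene's own mean over the 8 groups, for each member (black) and the 5 genes of highest correlation with it. MSRB6 and its like genes peak in red wild type and red phyB, those of AT1G64500 also stand above their dark levels in red phyA, and AT5G18600 spans a wider range than its like genes.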

How the data were processed

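Total RNA was labelled with biotin and read on Affymetrix arrays. The authors deposited a linear intensity for each probe set, the MAS5 signal per the submitters' processing notes, which give no version. Their mean after trimming 2% at each end was 500.038 to 500.044 on all arrays, so they were kept as scaled. From these, log2 signals were taken without a pseudocount. Probe sets above the array's 40th percentile on at least 3 of 24 arrays were tested, 15085 of 22746. Of the 22746, 13513 had 1 gene in the probe table, 503 several and 8730 none, and names were updated to TAIR10.1, with 77 unmatched.

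A mean for each of 8 groups was fitted to 24 arrays with limma 3.58.1 in R 4.3.3 (eBayes with an intensity trend), with two-sided tests, Benjamini-Hochberg adjustment over 15085 probe sets and a threshold of 0.05. The procedure was tested on simulated data. Named are the members, every tested gene of both families that passed, up to 2 genes per direction of each other list, and 5 like genes per member. GRX480 is named besides, for its dark phyA signals. Where probe sets share a gene, the brightest stands for it. Members, lists and tests were chosen with earlier results of these data known, those of phyB and phyAphyB included, so the p-values fitted for the members are not given as tests. PHYA and PHYB themselves are not analysed here. Alternatives were quantile normalization, other filters, a pseudocount, no trend, compared groups alone, a replicate block, array weights and leaving out arrays. Leaving out single arrays for wild type and phyA values, and dark phyA replicates 2 and 3 for the phyB and phyAphyB values, were added after the data were seen. Same-numbered arrays of the compared groups correlated in their deviations between -0.256 and 0.16, so the numbers were not taken as pairs.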

Additional observations from a re-analysis of the deposited data

Results flagged for a closer look

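The red responses of the 3 genes were set side by side in phyAphyB and phyB through limma's interaction term, with n = 3 arrays in each of the 4 groups compared. The differences in log2 were -2.32 for MSRB6, -2.39 for AT1G64500 and 1.19 for AT5G18600. The genes may have been chosen on these differences, so they are a description and no independent evidence. For AT5G18600 the limma adjusted p of that term is no test here and only marks how steady the value is. It was above the threshold (up to 0.11) in 7 of 12 leave-one-out fits. These were the fits without dark phyAphyB replicates 2 or 3, red phyAphyB replicates 1 or 3, dark phyB replicate 2 or red phyB replicates 1 or 2. No group holds more than 3 arrays, so no single array was tested as standing apart.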

How the results depend on the processing

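Of 238 alternative values with a fitted p, which for the members are a description, 224 kept the direction and the side of the threshold. The response difference of AT5G18600 was 1.19 with the compared groups alone (adjusted p = 0.07) and without the intensity trend (adjusted p = 0.068), and 0.97 to 1.49 without single arrays. With array weights the phyAphyB differences turned sign near 0, to 0.03 for MSRB6 and 0.01 for AT5G18600. Without single arrays they ran from -0.31 to 0.11 and from -0.20 to 0.13, and the red level of AT5G18600 from -0.06 to 0.47; the cause was not tested. Without dark phyA replicates 2 and 3, which left replicate 1 alone in that group, AT1G64500 differed by 0.72 in phyA, and by -2.25 from wild type. With the replicate block the response differences were -2.32, -2.39 and 1.19, and no fitted p of a member changed its side of the threshold. Counts over all tested probe sets moved from 867 to 845 in phyB and from 232 to 212 for the response difference. Each red phyB array correlated best with its own number in red phyAphyB, and in the other pairs of groups checked not every array did. MSRB6 gave no value with the filter at the 60th percentile, which it did not pass. With no filter, 7 and 6 other family genes differed between phyAphyB and phyB in darkness and red light, against 5 and 5. Dim signals limit the folds of MSRB6 and AT1G64500.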

Other observations

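The genes beside each member in the TAIR10.1 order of protein-coding genes were looked up as well, up to 4 places to each side where a probe set named them and passed the filter. Of the 13 measured, 0 passed for red minus dark in phyB or in phyAphyB by limma, beside 5.75% and 0.305% of all tested probe sets, so a count of 0 is near those shares. Beside MSRB6, the log2 differences in phyB were -0.24 for MSRB5, 0.08 for MSRB3 and -0.16 for DER2.2, against 2.16 for MSRB6 itself. Beside AT1G64500, at 2.64, AT1G64490 differed by -0.10 and AT1G64510 by -0.05. Beside AT5G18600, AT5G18590 differed by -0.20, and AT5G18610 by -1.05 with an SE of 0.80 (limma adjusted p = 0.6), a wide error that leaves its response unknown. MSRB4, 2 places from MSRB6, is not analysed here.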
